A study of Mus musculus with 4 samples.

Results

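The 9 genes Slc17a6, Slc17a7, Slc17a8, Slc1a1, Slc1a2, Slc1a3, Slc1a4, Slc1a6 and Glul encode carriers of glutamate and related amino acids and the enzyme that turns glutamate into glutamine. They were chosen by name, and every non-control spot bearing 1 of these names was read on all 4 arrays, which gave 12 of the 55681 distinct probes and 21 of the 59305 non-control spots of an array. They are 9 of 24164 genes with a symbol and a value on every array. In RNA immunoprecipitation (RIP), antibody-coated beads capture an RNA-binding protein from a lysate and the RNA that comes with it is measured, with non-specific IgG as the background. Male C57BL/6 mice aged 8 weeks gave a lysate of cortex and hippocampus, which was split between beads with CPEB2 IgG and beads with control IgG for 3 h, and the recovered RNA was hybridized to one-color Agilent arrays. Each antibody had 2 arrays, which form 2 pairs, called experiment 1 and experiment 2. No gene deletion or drug treatment is named for these mice, and the number of mice behind each lysate was not given in the sources used here. The p-values rest on the spread between these 4 arrays. The title and the protocol of the CPEB2 samples name CPEB2, whereas 1 of their text fields names CPEB3 IgG. The groups were taken from the titles.

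Glutamate is packed into synaptic vesicles by the vesicular transporters VGLUT1, VGLUT2 and VGLUT3 and, after release, is taken up by sodium-dependent transporters in the plasma membrane, chiefly those of astrocytes. Astrocytes amidate it to glutamine with glutamine synthetase and release the glutamine, which neurons take up and convert back to glutamate. CPEB2 is an RNA-binding protein of the cytoplasmic polyadenylation element binding family, and the element it is known for is a short U-rich motif in 3'-untranslated regions. The comparison asks which transcripts of this cycle were recovered more with CPEB2 IgG than with control IgG, and how the vesicular transporters compare with the plasma-membrane transporters and glutamine synthetase.

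On the 4 arrays, 68.4% to 74.1% of spots stood well above background and none was saturated, and all 12 member probes were well above background on every array. A log2 fold change below is the log2 signal with CPEB2 IgG minus that with control IgG of the same experiment, after each array was scaled to its 75th percentile. It is tested with limma over 41133 probes, and called where the Benjamini-Hochberg adjusted p is under 0.05. The variance that limma uses for a probe is drawn in large part from all tested probes, not from that probe alone. The median log2 fold change of these probes was -0.20, so a probe at -0.20 sits in the middle of the array. Higher signals with CPEB2 IgG were called for 12.7% of the tested probes and lower signals for 14.8%, or 5228 and 6095 probes, and median centring turned the balance to 7500 higher and 5595 lower. The antibodies did not share array positions on their slide, so an effect of position cannot be told apart from the antibody. Both antibodies of a pair received portions of a lysate, so cell numbers and RNA per cell were shared within it, and the arrays do not show which cells a transcript came from.

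Of the 12 member probes, 4 were higher with CPEB2 IgG and none was lower by limma, against 12.7% and 14.8% of all tested probes. At an unadjusted limma p under 0.05 the member counts were 5 and 1. The share of all tested probes at that unadjusted level is not given here, so these counts have no background. The 4 probes belong to Slc17a6 among the vesicular transporters and to Slc1a3, Slc1a2 and Slc1a1 among the plasma-membrane transporters. Both CPEB2 IgG arrays lay above both control IgG arrays at 6 member probes, as they did at 26.4% of all tested probes, and below them at 1 member probe, as at 39.2% of all. The median log2 fold change was 0.37 over the 4 vesicular probes and 0.52 over the 7 plasma-membrane probes. Taken at the brightest probe of each gene it was -0.03 over the 3 vesicular genes and 1.20 over the 5 plasma-membrane genes. Brightness was the mean over all 4 arrays, so the CPEB2 IgG signal took part in the choice. For Slc1a2 the mean of the control IgG arrays alone would have given A_55_P2136847, at 0.52, in place of A_55_P2392625, at 1.30. The plasma-membrane median depends on that choice. Within each class the values ran widely, from -0.06 to 1.96 for the vesicular probes and from -0.75 to 3.44 for the plasma-membrane probes. Without the filter that removes dim probes, 0 of 55615 probes were called by limma, against 16093 at an unadjusted p under 0.05, and the adjusted p of the 4 member probes then lay between 0.0961 and 0.101.

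**Figure D1:**
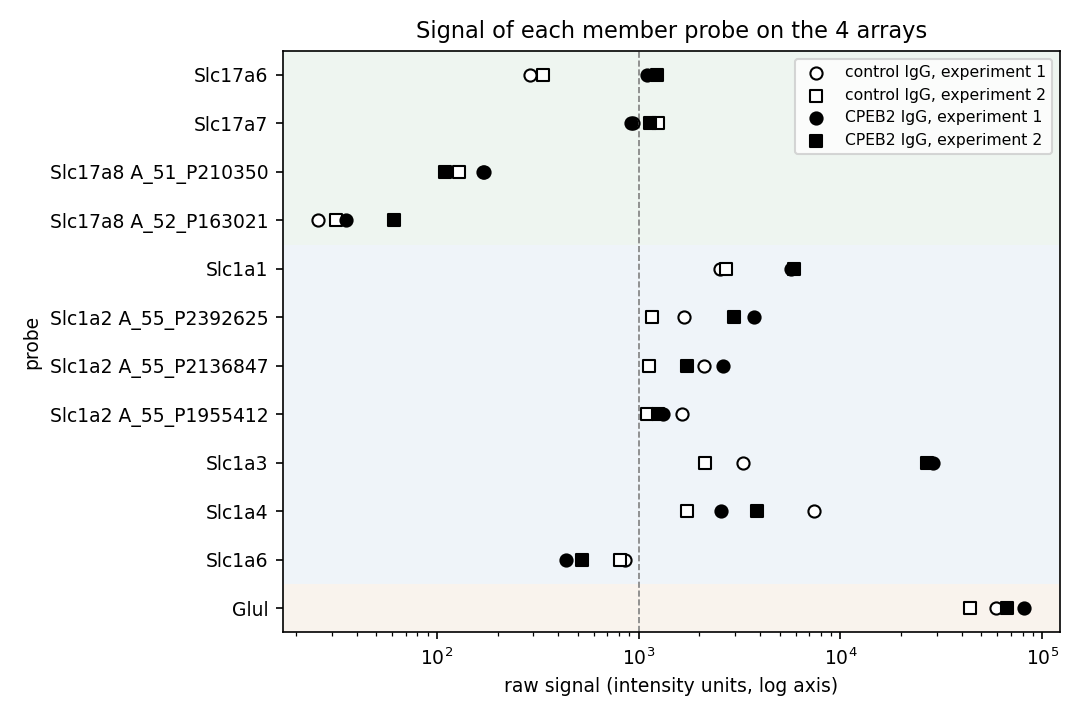
Raw signal of the 12 member probes on the 4 arrays, with probes in rows, signal on a log axis, filled symbols for CPEB2 IgG, open symbols for control IgG, circles for experiment 1 and squares for experiment 2. The shading marks vesicular transporters, plasma-membrane transporters and glutamine synthetase from top to bottom, and the dashed line is the raw signal of 1000 used as a threshold. At Slc1a3, Slc17a6 and Slc1a1 the filled symbols stand clear of the open ones, while at Slc17a7 they are mixed.

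Slc17a6 encodes VGLUT2, the vesicular transporter known for thalamic and brainstem neurons and for a smaller set of cortical and hippocampal terminals. Its 1 probe lies at chr7:58926067-58926126 on the plus strand (mm9, NM_080853). Its raw signal was 1097 and 1232 after CPEB2 IgG and 288 and 334 after control IgG. The CPEB2 IgG arrays were close to each other and well above the control IgG arrays, which were also close to each other. This gave a log2 fold change of 2.01 in experiment 1 and 1.90 in experiment 2, or 1.96 ± 0.08 (SD, n = 2 experiments), a 3.89-fold difference (limma standard error 0.28, adjusted p = 0.00946). Of all tested probes, 4.57% had a larger log2 fold change.

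Slc17a7 encodes VGLUT1, the main vesicular glutamate transporter of cortical and hippocampal pyramidal neurons. Its probe lies at chr7:52430841-52430900 on the plus strand (mm9, NM_182993), and the raw signal was 914 and 1136 with CPEB2 IgG, against 939 and 1246 with control IgG. The arrays of the antibodies overlapped, and in both groups experiment 2 had the higher raw signal. The experiments gave log2 fold changes of 0.04 and -0.11, or -0.03 ± 0.11 (SD, n = 2), with a 95% limma interval from -0.73 to 0.67 (adjusted p = 0.943). Its sign turned under median centring, spike-in scaling and centring by probe GC content, where it reached 0.19.

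The probes of these transporters had the same GC content, 41.7%. Among the 2616 tested probes of that GC content, with a median log2 fold change of -0.18, 3.63% lay above Slc17a6 and 41.5% above Slc17a7. The inner 30 bases of each 60-base probe, bases 16 to 45, are shown to let the targets be told apart, and no capitals are used because neither holds the motif searched below.
Slc17a6: aaacctcctgtgtgtaaattatccccatgt
Slc17a7: accaattctacatttttccaagctggttta
Across the 66 pairs of member probes the longest run of bases shared on the same strand was 8.

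Slc17a8 encodes VGLUT3, found in neurons that mostly use another transmitter as well. Its upstream probe (A_51_P210350, chr10:89046159-89046218, minus strand, mm9) gave raw signals of 171 and 109 in the CPEB2 IgG arrays and 169 and 129 in the control IgG arrays. The groups overlapped, and the log2 fold change was 0.10 and -0.22, or -0.06 ± 0.22 (SD, n = 2, limma adjusted p = 0.900), with a sign that turned under 5 of the other scalings and centrings. The probe 8529 bp farther along the transcript strand (A_52_P163021, chr10:89037630-89037689) was dim, at 35.5 and 61.5 with CPEB2 IgG, against 25.7 and 31.5 with control IgG. Here both CPEB2 IgG arrays lay above both control IgG arrays, by a log2 fold change of 0.55 and 0.99, or 0.77 ± 0.31 (SD, n = 2), which did not pass the test (limma adjusted p = 0.109). It passed with median centring, at 0.995 (limma adjusted p = 0.0435).

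The difference between the vesicular transporters was examined directly, as the log2 signal of 1 probe minus that of the other on each array. The change of Slc17a6 exceeded that of Slc17a7 by 1.97 in experiment 1 and 2.01 in experiment 2, or 1.99 ± 0.03 (SD, n = 2), a 3.97-fold difference. It exceeded that of Slc17a8 at its brighter probe by 1.91 and 2.12, or 2.02 ± 0.15 (SD, n = 2). Both differences were many times larger than these SDs, but an SD of 2 values is itself poorly determined. With 2 arrays against 2, the exact permutation test (two-sided) gave p = 0.333, the smallest value it can give, for both and for the third comparison of this family below, and adjustment over the 3 comparisons leaves it at 0.333. Quantile normalization gave 2.07 and 1.81, and after centring in GC bins they were 1.99 and 1.92.

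**Figure D2:**
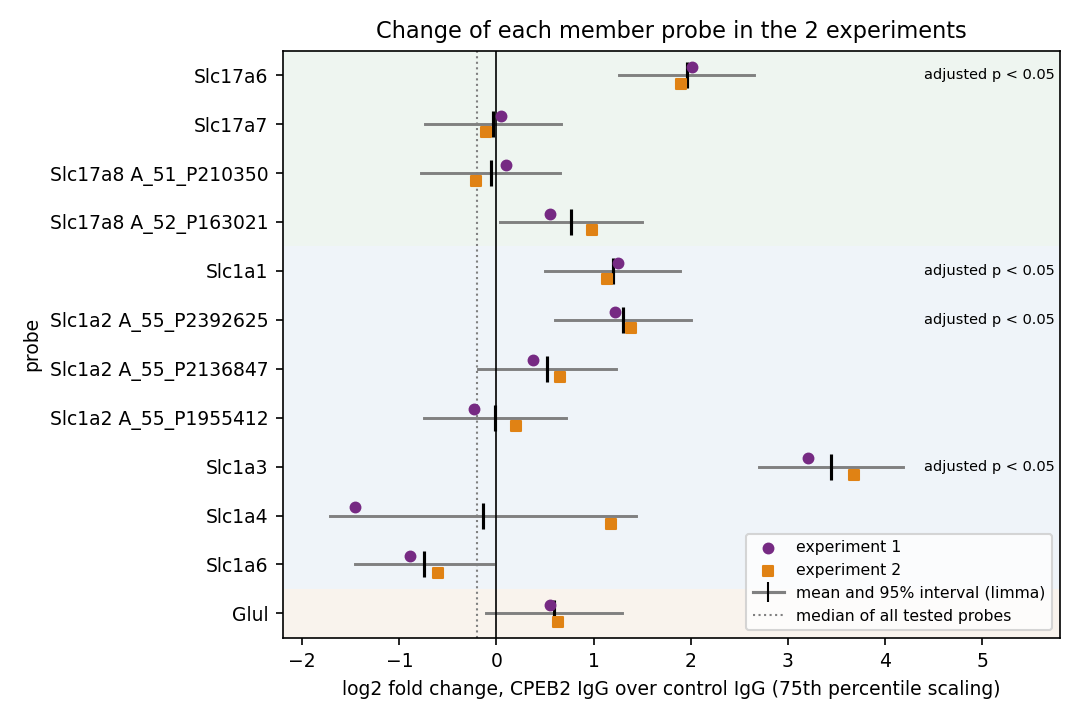
Log2 fold change of each member probe in experiment 1 (circles) and experiment 2 (squares), with the mean as a tick, the 95% limma interval as a line, and the median of all tested probes as a dotted line. Slc1a3 lies farthest to the right at 3.44, the 2 experiments of Slc1a4 fall on opposite sides of 0, and the 4 probes past the threshold are labelled.

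Slc1a3 encodes GLAST, a glutamate transporter of astrocytes and radial glia, and it had the largest log2 fold change among the members. Its probe lies at chr15:8584236-8584295 on the minus strand (mm9, NM_148938). With CPEB2 IgG its raw signal was 28729 and 26888, and with control IgG it was 3302 and 2133. The CPEB2 IgG arrays were similar, and the lower of them was still several-fold above the higher control IgG array. Its log2 fold change was 3.20 and 3.68, or 3.44 ± 0.34 (SD, n = 2), with a limma adjusted p of 0.00678, and it ranked 110 of 41133 tested probes. The probe has a GC content of 35%, and of the 7733 tested probes with that GC content, whose median was 0.34, 0.556% lay higher. After centring within bins of GC content the log2 fold change was 3.22.

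Slc1a3 was the only member whose probe held the DNA form of the element that CPEB proteins are known to bind, searched as TTTTAT or TTTTAAT on the probe's strand, which is that of the transcript. The motif stood in 1866 of the 41133 tested probes, or 4.54%. Bases 8 to 37 of the Slc1a3 probe are shown with the motif in capitals.
Slc1a3: cggtgtgatattTTTTATactaaccatttc
The median log2 fold change was 0.35 over the tested probes with the motif and -0.22 over those without it. Among the 8503 tested probes with a GC content of at most 35%, 978 held the motif and had a median of 0.70, against 0.33 for the rest. These are descriptions of 60-base windows, and the untranslated regions outside the probes are not analysed here.

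Slc1a2 encodes GLT-1, the main glutamate transporter of forebrain astrocytes, and its 3 probes gave 3 different values. The probe A_55_P1955412 (chr2:102617752-102617811, plus strand, mm9, NM_011393) read 1312 and 1250 in raw signal with CPEB2 IgG, against 1636 and 1103 with control IgG. At A_55_P2136847 (chr2:102622252-102622311, NM_001077514) the raw signals were 2604 and 1739 with CPEB2 IgG, against 2118 and 1123 with control IgG. At A_55_P2392625 (chr2:102626380-102626439, NM_001077514) they were 3716 and 2978 with CPEB2 IgG, against 1683 and 1162 with control IgG. The groups overlapped at the first and the second of these probes and were separate at the third.

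The log2 fold change of Slc1a2 was -0.02 ± 0.31 (SD, n = 2) at the first probe, 0.52 ± 0.19 at the probe 4500 bp farther along the transcript strand and 1.30 ± 0.11 at the probe 8628 bp farther. The third alone passed limma, with adjusted p-values of 0.974, 0.231 and 0.0244 in this order. The order of the probes was the same in each experiment, at -0.23, 0.38 and 1.23 in experiment 1 and 0.20, 0.65 and 1.38 in experiment 2. Their GC contents were 43.3%, 45% and 40%, and centring within each GC content gave 0.22, 0.83 and 1.45. When the probes of the gene were averaged, the log2 fold change was 0.60 and did not pass (limma adjusted p = 0.103). The exon or untranslated region that each probe lies in was not determined, and the differences between the probes were not tested. Bases 16 to 45 of the probes are given in their order along the gene.
A_55_P1955412: gtgtgtctatgccgcacacaactctgtcgt
A_55_P2136847: gtttcatgggtgcccatactctgaaatgca
A_55_P2392625: attcagacatcagtaaatatcctttggtta

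The third planned comparison set Slc1a3 against A_55_P2392625, the Slc1a2 probe brightest by its mean over all 4 arrays. The mean of the control IgG arrays alone was higher at A_55_P2136847, which was not compared. The change of Slc1a3 exceeded that of A_55_P2392625 by 1.98 in experiment 1 and 2.30 in experiment 2, or 2.14 ± 0.23 (SD, n = 2). Quantile normalization put this at 2.34 and centring within GC bins at 1.77.

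Slc1a1 encodes EAAC1, the plasma-membrane transporter of neurons, which lies mainly on cell bodies and dendrites. Its probe at chr19:28988332-28988391 on the plus strand (mm9, NM_009199) was printed 10 times on each array, so each value is a mean over spots. Raw signals were 5688 and 5854 with CPEB2 IgG, against 2526 and 2709 with control IgG. The arrays of each antibody lay within a narrow range, and the ranges were far apart. In the experiments its log2 fold change was 1.25 and 1.14, or 1.20 ± 0.08 (SD, n = 2, limma adjusted p = 0.0307). Of the 10380 tested probes with the same GC content of 45%, 6.29% lay higher.

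Slc1a6 encodes EAAT4, a transporter known for cerebellar Purkinje cells. Its probe at chr10:78277447-78277506 on the plus strand (mm9, NM_009200) had a raw signal of 438 and 524 with CPEB2 IgG, against 857 and 811 with control IgG. It was the 1 member probe at which both CPEB2 IgG arrays lay below both control IgG arrays. The log2 fold change was -0.89 and -0.61, or -0.75 ± 0.20 (SD, n = 2), and it did not pass (limma adjusted p = 0.109). It did pass with normexp background correction, at -0.71 (limma adjusted p = 0.0184), and with an intensity trend in the variance prior, at -0.75 (limma adjusted p = 0.0193). These settings called 7623 and 8672 of all tested probes lower, against 6095 in the main fit.

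Slc1a4 encodes ASCT1, a carrier of alanine, serine and other neutral amino acids that belongs to the same gene family but is not known as a glutamate uptake carrier. Its probe lies at chr11:20202615-20202674 on the minus strand (mm9, NM_018861). Its raw signal was 2564 and 3856 with CPEB2 IgG, against 7430 and 1729 with control IgG, and the control IgG arrays were the highest and the lowest of the 4. The experiments went opposite ways, at -1.45 and 1.18, so that the mean of -0.14 ± 1.86 (SD, n = 2, limma adjusted p = 0.893) describes neither. It was the widest gap between experiments among the 12 member probes.

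The probe of Slc1a4 was also the only member probe with a run of 12 or more alternating G and T bases, shown in capitals within bases 20 to 49.
Slc1a4: atgtatcaaGTGTGTGTGTGTatgtgtgtg
Such a run was held by 122 of the 41133 tested probes, or 0.297%, and their median log2 fold change was -1.49 in experiment 1 and 1.13 in experiment 2. At 115 of the 122 the sign was negative in experiment 1 and positive in experiment 2, as at Slc1a4, against 7.03% of the tested probes with neither this run nor its complement. The 61 tested probes with a run of 12 or more alternating A and C bases went the other way, with medians of 1.26 and -0.71. The search was made after the values of Slc1a4 were seen, and the part of the run in its signal was not tested.

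Glul encodes glutamine synthetase, the astrocyte enzyme of the cycle. Its probe lies at chr1:155756765-155756824 on the plus strand (mm9, NM_008131), and the CPEB2 IgG arrays read 81719 and 66851 in raw signal, against 58976 and 43909 on the control IgG arrays. Both CPEB2 IgG arrays lay above both control IgG arrays, with experiment 1 the brighter for each antibody. The experiments gave 0.55 and 0.63 on the log2 scale, or 0.59 ± 0.05 (SD, n = 2), a 1.51-fold difference with a 95% limma interval from -0.11 to 1.29 on the log2 scale, and it did not pass (adjusted p = 0.172). Its probe has a GC content of 35%, as that of Slc1a3 has, and 41.9% of the tested probes with this GC content lay higher. After centring within bins of GC content its log2 fold change was 0.37.

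**Figure D3:**
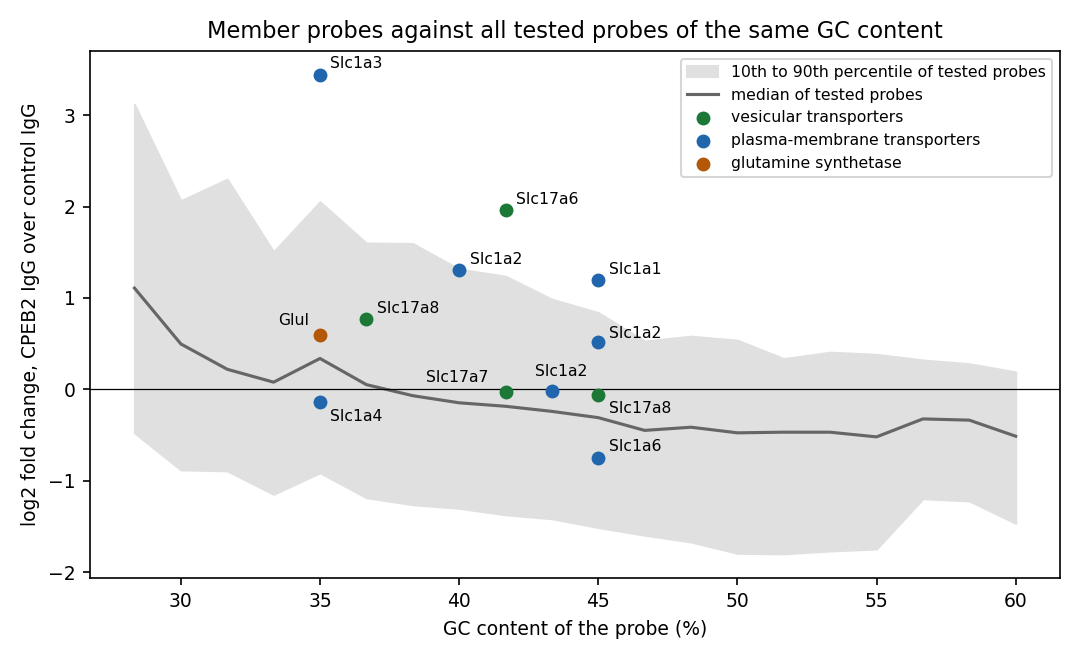
Log2 fold change of the member probes against the GC content of the probe, with the median (line) and the 10th to 90th percentile (band) of all tested probes at each GC content, rare values at either end being joined. The line falls from 0.34 at 35% to -0.31 at 45%, Slc1a3, Slc17a6 and Slc1a1 lie above the band, and Glul, Slc17a7 and the first Slc1a2 probe lie near the line.

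The study's methods used an enrichment of more than 1.5-fold and a raw signal over 1000 as thresholds, with no test. They also required a cytoplasmic polyadenylation element in the 3'-untranslated region, which was not applied here. Here the fold was the mean of the experiments and the signal had to be reached on either CPEB2 IgG array. The fold and signal thresholds were passed by 5 of the 9 genes, Slc17a6, Slc1a1, Slc1a2, Slc1a3 and Glul, against 13.9% of all 24164 genes. The signal threshold was met by 7 of the 9, all but Slc17a8 and Slc1a6, and 47.7% of the 7033 genes that met it passed. Slc17a6 stood just inside the signal threshold at 1097 and 1232 and failed when it was raised to 2000. Glul stood just inside the fold threshold at 1.51-fold and fell outside it with no scaling, normexp background correction, another set of probes behind the percentile, either centring by GC content, a fold change above 2, or 1.5-fold required in each experiment. The count was 6 in experiment 2 alone, where Slc1a4 was added, and 4 in experiment 1 alone, where Glul was lost. Of all genes 3585 passed in experiment 2 alone and 3001 in experiment 1 alone, against 3358 with both.

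**Figure D4:**
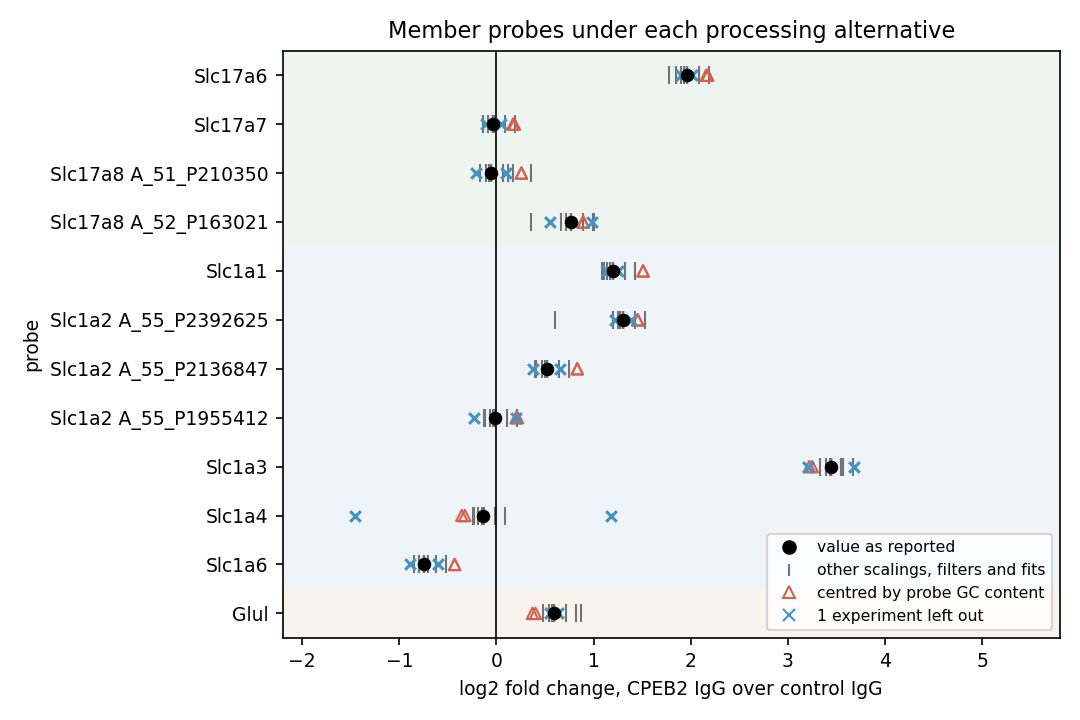
Log2 fold change of each member probe as reported (filled circles), under other scalings, filters and fits (ticks), after centring by probe GC content (triangles) and with 1 experiment left out (crosses). The values of Slc17a6 stay between 1.78 and 2.19 and those of Slc1a3 between 3.20 and 3.68, whereas those of Slc1a4 run from -1.45 to 1.18.

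The other genes of the pathway were read at the brightest probe of each gene, chosen by its mean over all 4 arrays. Some have further probes whose values are not shown, such as Slc38a1 and Bcat1 with 3 probes each and Glud1 and Slc7a5 with 2. A value below is that of 1 probe. Of 29 such genes 26 were tested, and limma called 8 higher and 7 lower with CPEB2 IgG, against 21.2% and 20.4% of all 19695 genes tested in this way. Their median log2 fold change was -0.11, as was that of all genes, so as a whole they moved in both directions.

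The glutamine carriers pass glutamine between astrocytes and neurons, across the plasma membrane in general or, for Slc38a7, out of the lysosome. They centred on a median of 1.05 in log2 fold change, and 5 of the 9 were higher. These were Slc7a8 (LAT2) at 2.19, the astrocyte exporter Slc38a3 (SNAT3) at 1.64, Slc38a2 (SNAT2) at 1.30, the lysosomal exporter Slc38a7 at 1.13 and the neuronal importer Slc38a1 (SNAT1) at 1.05. Their limma adjusted p-values lay between 0.00644 and 0.0234, and all 5 passed in each of the 10 scalings and corrections run at the gene level. Slc7a5 (LAT1) and Slc38a5 (SNAT5) were lower, at -1.20 (limma adjusted p = 0.0312) and -1.02 (limma adjusted p = 0.0254), and neither passed with spike-in scaling or with centring by GC content, nor did Slc7a5 with quantile normalization or Slc38a5 with median centring.

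Among 7 enzymes of glutamate and glutamine metabolism, 1 was higher and 3 were lower. Glud1, glutamate dehydrogenase, read 40693 and 34694 in raw signal with CPEB2 IgG, against 14299 and 10900 with control IgG, a log2 fold change of 1.64 ± 0.07 (SD, n = 2, limma adjusted p = 0.00800). The mitochondrial aspartate aminotransferase Got2 was lower at -1.60, pyruvate carboxylase Pcx at -1.55 and the branched-chain aminotransferase Bcat1 at -1.11, the last not passing with spike-in scaling or centring by GC content.

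Of the 7 other glutamate carriers 2 were higher and 2 lower. Slc7a11, the cystine-glutamate exchanger xCT, read 144 and 186 in raw signal with CPEB2 IgG, against 36.4 and 22.1 with control IgG, a log2 fold change of 2.58 ± 0.73 (SD, n = 2, limma adjusted p = 0.00690) that fell to 1.32 with normexp background correction. The mitochondrial carriers split, with the aspartate-glutamate carrier Slc25a13 (citrin) at 1.27, its relative Slc25a12 (aralar) at -1.26 and the glutamate carrier Slc25a18 at -1.81, with limma adjusted p-values of 0.0147, 0.0146 and 0.00766. Of the 6 other SLC17 carriers, relatives of the vesicular transporters, 3 were tested and none passed. Among them Slc17a5 (sialin) went opposite ways, at 1.37 in experiment 1 and -1.04 in experiment 2. Its probe holds a run of alternating A and C bases, whose part in the signal was not tested.

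**Figure D5:**
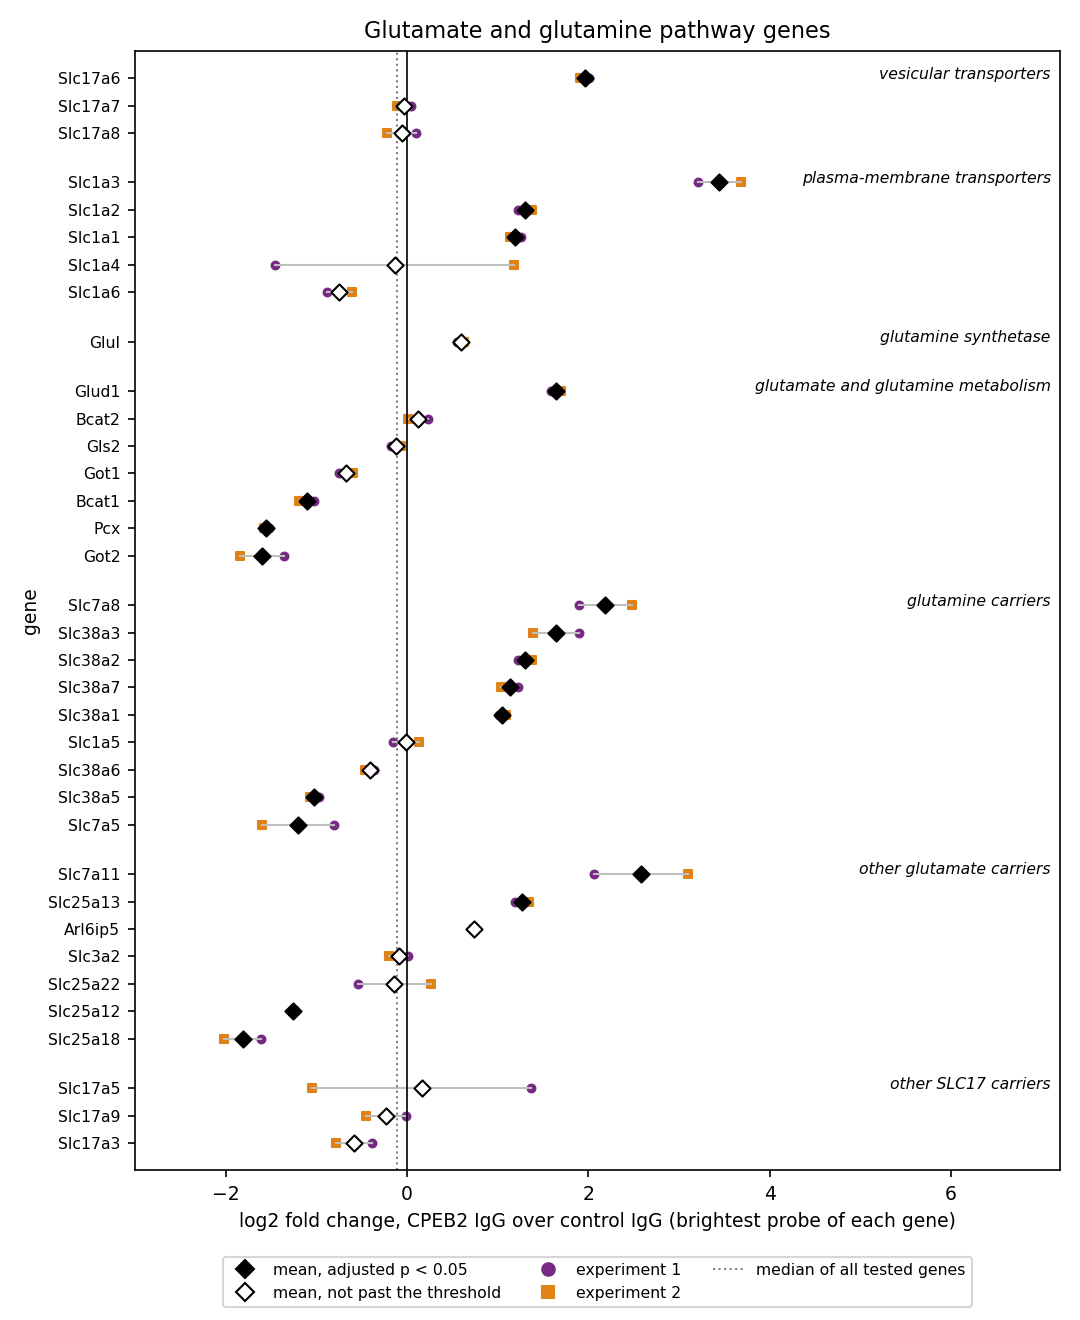
Log2 fold change of the pathway genes at the brightest probe of each gene, with the mean as a diamond (filled where the adjusted p is under 0.05), experiment 1 as a circle and experiment 2 as a square. Filled diamonds lie to the right for 5 of the 9 glutamine carriers, while the metabolic enzymes have 1 filled diamond to the right and 3 to the left.

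Markers of the cell types in the lysate were read at the brightest probe of each gene, with no test of a list. Of all 19695 genes tested in this way, 21.2% were higher and 20.4% lower. The lists are short, and most held calls in both directions. Of 9 astrocyte markers, 3 were higher (Atp1b2 at 2.51, Fgfr3 at 1.68 and Gja1 at 1.01) and 4 were lower (Aldh1l1 at -3.77, Aldoc at -2.91, S100b at -1.05 and Gfap at -0.90), with a median of 0.59. Their summed raw signal was 66043 and 67515 with CPEB2 IgG, against 265825 and 213531 with control IgG, and Aldoc alone gave 30139 and 22718 against 225494 and 183759. Without Aldoc the sums were 35904 and 44797 against 40331 and 29772, lower with CPEB2 IgG in experiment 1 and higher in experiment 2. Of 7 neuron markers 1 was higher and 3 were lower, and their summed signal was 101833 and 105200 against 145959 and 152467. The thalamus markers, of interest for Slc17a6, had 1 of 3 higher and 1 lower and sums of 680 and 692 against 711 and 728, and the 2 tested cerebellum markers, of interest for Slc1a6, did not pass. Of 6 oligodendrocyte markers 3 were lower, and of 6 microglia markers 1 was higher and 2 were lower. With median centring or spike-in scaling 2 astrocyte markers were lower, Gfap and S100b no longer passing, and 1 oligodendrocyte marker was lower. With no replicate block 1 oligodendrocyte marker was lower as well. The higher astrocyte markers rose to 5 with normexp background correction. No tested marker was at 0 on any array.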

How the data were processed

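RIP-microarray signals of 2 CPEB2 IgG and 2 control IgG arrays were used. For each array the authors deposited the scanner file of Agilent Feature Extraction 10.5.1.1, which holds intensities per spot, background-corrected by that software and not scaled between arrays. Probe coordinates are on mm9, as the files give them. A text field of the CPEB2 samples names CPEB3 IgG, and groups follow the titles.

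Control spots and spots marked non-uniform or population outliers were removed, spots of a probe were averaged on the log2 scale, and 66 probes lacking a value on an array were dropped. The 75th percentile of the remaining 55615 probes was subtracted on each array. A model with the experiment as a block was fitted with limma (version 3.58.1, R 4.3.3) to the 41133 probes well above background on at least 2 arrays, with Benjamini-Hochberg adjustment over all of them, and leaves 1 residual degree of freedom. It was tested on simulated data, in which calls depended on how many probes changed. The simulated noise was independent between arrays, with no difference between experiments, so it does not cover such differences in the real arrays. The pairing comes from the methods, by which both antibodies received portions of a lysate, and from the authors' table, which sets same-numbered arrays side by side. Deviations of same-numbered arrays from their group means correlated at 0.206. To this limma adds 4.44 prior degrees of freedom, with a prior SD of 0.307 pooled over the tested probes. Precision is limited by the small number of arrays. Other steps used Python 3.11.15, numpy 2.4.6, scipy 1.17.1, pandas 2.3.3 and matplotlib 3.10.9.

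All members were described. Of the 4 other pathway lists, up to 4 genes each with the lowest adjusted p were named, and Slc38a1, Slc38a5, Slc7a5 and the markers were named beyond this rule after their values were seen. One gene of these lists is not reported here. Members and lists were chosen with earlier results of these data known. The alternatives were other scalings, background correction, centring within 8 bins of probe GC content, no block, an intensity trend, other filters, other ways to combine probes, other thresholds and either experiment left out. Centring within each GC content and the alternatives for the other pathway genes were added after seeing the data. Exon and untranslated-region annotation of the probes is not used here.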

Additional observations from a re-analysis of the deposited data

How the results depend on the processing

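The 4 members called higher kept their sign in every alternative run and passed limma in each, except that none was called with no filter on dim probes (0 of 12) and Slc1a2 was lost when its probes were averaged. Tested by probe, the count of members called lower was 0 in every alternative but normexp background correction and the intensity trend, which gave 1 (Slc1a6). Over all tested probes normexp called 6883 higher and 7623 lower and the trend 7224 and 8672, against 5228 and 6095 in the main fit. Glul passed in the same 2, at 0.57 (limma adjusted p = 0.0340) and 0.59 (limma adjusted p = 0.0261), and its adjusted p otherwise ran up to 0.363. In the fit over the brightest probe of each gene, Slc1a6 was lower with quantile normalization, another set of probes behind the percentile and normexp (limma adjusted p = 0.0400, 0.0426 and 0.0110), and Glul was higher with quantile normalization and normexp (limma adjusted p = 0.0289 and 0.0234). With no replicate block, the fit that ignores the pairing, the log2 fold changes were the same by construction, 4 member probes were higher and 0 lower, and 5432 and 5928 of all tested probes were called. No member probe's call changed, but in the fit over the brightest probe of each gene Slc1a6 was then lower (limma adjusted p = 0.0422, against 0.0632 with the block). Of the other pathway genes 9 were then higher and 7 lower, and spike-in scaling left 4 lower. Spike-in scaling also called fewer of all tested probes lower, 4222 against 6095 in the main fit.

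Signs turned at 4 probes that did not pass in any setting. Slc17a7 was 0.19 with median centring, 0.093 with spike-in scaling, 0.19 and 0.17 with centring within GC bins and within each GC content, and 0.045 without replicate 2, against -0.11 without replicate 1. Slc17a8 at A_51_P210350 was 0.12 with quantile normalization, then in the same order 0.17, 0.067, 0.26, 0.26 and 0.100, with -0.22 without replicate 1, and 0.36 with its probes averaged. Slc1a2 at A_55_P1955412 was 0.21, 0.11, 0.20 and 0.22, and 0.20 without replicate 1, against -0.23 without replicate 2. Slc1a4 was 0.091 with median centring and 1.18 without replicate 1, against -1.45 without replicate 2. Leaving out either experiment, which allows no test, gave 4 to 6 member genes past the study's fold and signal thresholds. Of all genes 3585 passed without replicate 1 and 3001 without replicate 2, against 3358 with both. The differences ran from 1.97 to 2.01 for Slc17a6 over Slc17a7 with either experiment left out. They ran from 1.91 to 2.12 for Slc17a6 over Slc17a8 and from 1.98 to 2.30 for Slc1a3 over Slc1a2. The causes of these shifts were not tested. The dimmest member probe, A_52_P163021 of Slc17a8, moved most with background correction, to 0.36 with normexp.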
